A study of Mus musculus with 4 samples.

Results

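Carbon supply and control of lipogenesis were followed in mouse liver through 11 array probes of 10 genes, out of 20868 probes on the array. The genes were Pklr, Me1, Acss2, Slc25a1, Acly, Acaca, Fasn, Thrsp, Mlxipl and Nr1h3. A probe was taken where its RefSeq accession or bracketed symbol named one of these genes, or where its description named fatty acid synthase, ATP citrate lyase or acetyl-CoA carboxylase. The rule uses no measured value, though the genes were picked with earlier results of these data known. RefSeq accessions gave 7 probes (Pklr NM_013631, Me1 NM_008615, Acss2 NM_019811, Slc25a1 NM_153150, Thrsp NM_009381, Mlxipl NM_021455 and Nr1h3 NM_013839). Descriptions gave the other probes, which were Fasn (AF127033), Acly (AF332052) and 2 clones assigned to Acaca (AF374169 and AF374170).

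All animals were males of a polygenic obese mouse line, and livers were taken on day 14 of a feeding trial. The treated diet held 1% conjugated linoleic acid (CLA) as its trans-10, cis-12 isomer, a fatty acid that lowers body fat in mice, and the control diet held 1% linoleic acid. Each of 4 two-colour Agilent arrays compared 1 CLA pool with 1 control pool, and a pool held RNA of 4 or 5 mice. The dyes were swapped: Cy5 (red) marked CLA RNA on arrays 1 and 2, and Cy3 (green) marked it on arrays 3 and 4. Whether any pool was used on more than 1 array is not given, so p-values reflect the spread of the arrays, and that spread may be technical.

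Liver makes fatty acid from surplus carbohydrate. Pyruvate kinase ends glycolysis, mitochondria turn pyruvate into citrate, the citrate carrier exports it, and ATP citrate lyase splits it into cytosolic acetyl-CoA. Acetyl-CoA carboxylase and fatty acid synthase build palmitate from that acetyl-CoA, with NADPH from malic enzyme and the pentose phosphate pathway. Insulin acts on these genes through the sterol-regulated factor SREBP-1c, glucose through ChREBP (the product of Mlxipl), and oxysterols through the liver X receptor LXRα (the product of Nr1h3).

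The promoters of 4 of these genes are shown. Fasn and Thrsp had the widest range among the probes measured on all 4 arrays, and Acss2 had the most negative diet effect. Mlxipl, like Slc25a1, held both motifs searched in a window. Each window runs 5′ to 3′ on the gene's strand, from 250 bases before to 50 after the RefSeq start (RefSeq, GRCm38.p6). Capitals mark the CCAAT box on either strand (CCAAT or ATTGG), which the factor NF-Y binds, and the E-box CACGTG, which reads the same on both strands and is a target of ChREBP.
Fasn, chr11:120824498-120824797, minus strand: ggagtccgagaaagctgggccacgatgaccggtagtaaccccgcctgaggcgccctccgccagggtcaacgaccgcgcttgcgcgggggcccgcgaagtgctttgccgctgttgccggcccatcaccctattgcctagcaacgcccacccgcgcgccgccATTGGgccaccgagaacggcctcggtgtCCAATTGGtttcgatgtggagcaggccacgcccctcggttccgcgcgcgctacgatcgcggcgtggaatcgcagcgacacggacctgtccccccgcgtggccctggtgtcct
Acss2, chr2:155517793-155518092, plus strand: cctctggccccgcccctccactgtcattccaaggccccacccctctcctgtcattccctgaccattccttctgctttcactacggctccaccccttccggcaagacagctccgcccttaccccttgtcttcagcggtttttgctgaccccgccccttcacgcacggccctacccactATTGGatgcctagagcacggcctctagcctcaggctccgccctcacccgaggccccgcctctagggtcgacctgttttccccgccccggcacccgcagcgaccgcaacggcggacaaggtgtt
Thrsp, chr7:97417501-97417800, minus strand: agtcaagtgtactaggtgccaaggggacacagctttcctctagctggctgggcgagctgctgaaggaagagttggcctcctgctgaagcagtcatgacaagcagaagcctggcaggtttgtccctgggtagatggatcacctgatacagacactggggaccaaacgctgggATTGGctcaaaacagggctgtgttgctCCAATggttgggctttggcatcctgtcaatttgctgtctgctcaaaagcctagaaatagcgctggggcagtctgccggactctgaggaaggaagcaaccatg
Mlxipl, chr5:135089640-135089939, plus strand: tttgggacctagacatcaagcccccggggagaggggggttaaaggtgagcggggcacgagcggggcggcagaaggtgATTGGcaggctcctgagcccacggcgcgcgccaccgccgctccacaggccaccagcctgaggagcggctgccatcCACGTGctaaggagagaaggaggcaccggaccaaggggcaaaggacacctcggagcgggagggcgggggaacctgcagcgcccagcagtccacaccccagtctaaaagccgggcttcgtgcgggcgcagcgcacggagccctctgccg
A CCAAT box lay in 8 of the 14 windows of the 10 genes, against 37.4% of 32851 mouse windows. It was found in a window of every gene but Acaca and Nr1h3. Fasn held 3 matches, of which 2 overlap on opposite strands. The E-box lay in windows of Slc25a1 and Mlxipl, 2 of the 14 windows against 7.15% of all. A match is a description of the letters and not a measured site.

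Between 80.3% and 95.8% of the spots outside controls were well above background in each array and channel. Of the 11 probes, each with 1 spot per array, all were well above background in both channels on every array where they were measured, and none was saturated. The liver markers Ttr, Apoa1 and Ahsg were tested, 3 of the 8 listed. Their summed normalized intensity was 55072 to 77331 in CLA and 43439 to 96490 in control channels. Dye was a large source of variation. CLA over control correlated at 0.56 between arrays 1 and 2 and at 0.81 between arrays 3 and 4, but at -0.72 to -0.46 between arrays of opposite orientation over all probes, which share arrays and dyes. Read as Cy5 over Cy3, all 4 arrays thus ran the same way, and the direction of the diet effect rests on the labelled dyes. Diet effect and dye effect correlated at -0.53 across probes.

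None of the 11 probes was called different between diets at an adjusted p under 0.05 (limma's moderated test, Benjamini-Hochberg over 20211 probes tested). Over all probes 14 were called, 0.0693%, of which 7 were higher with CLA (0.0346%) and 7 lower (0.0346%). At an unadjusted p under 0.05, 3 of the 11 passed (Pklr and Me1 higher, Acss2 lower), beside 15.9% of all probes. Higher were 2 of 11 beside 8.76%, and lower 1 of 11 beside 7.18%. Of the 11 probes 6 lay above 0, as did 52.3% of all, and their median diet effect was 0.02 on the log2 scale beside 0.01 over all probes. The same measured sign on all arrays was seen in 2 of the 10 probes measured on 4 arrays (Slc25a1 and the Acaca probe AF374170), beside 9.33% of all. An effect past 0.25 in size was seen in 3 of 11 probes, against 4.58% of all, and these were the 3 with an unadjusted p under 0.05. Below, a value per array is the normalized log2 ratio of CLA over control as measured. The diet effect is the mean of the 2 dye orientations' means, so that a constant dye effect cancels. The dye effect was not constant: its slope across probes was 0.78 on array 1, 0.73 on array 2 and 1.18 on array 3. It was larger still on array 4. Part of the dye effect can thus remain in the diet effect, so values with the dye effect equalised are also given. In whole liver RNA, fewer cells of a type and less RNA per cell cannot be told apart.

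**Figure D1:**
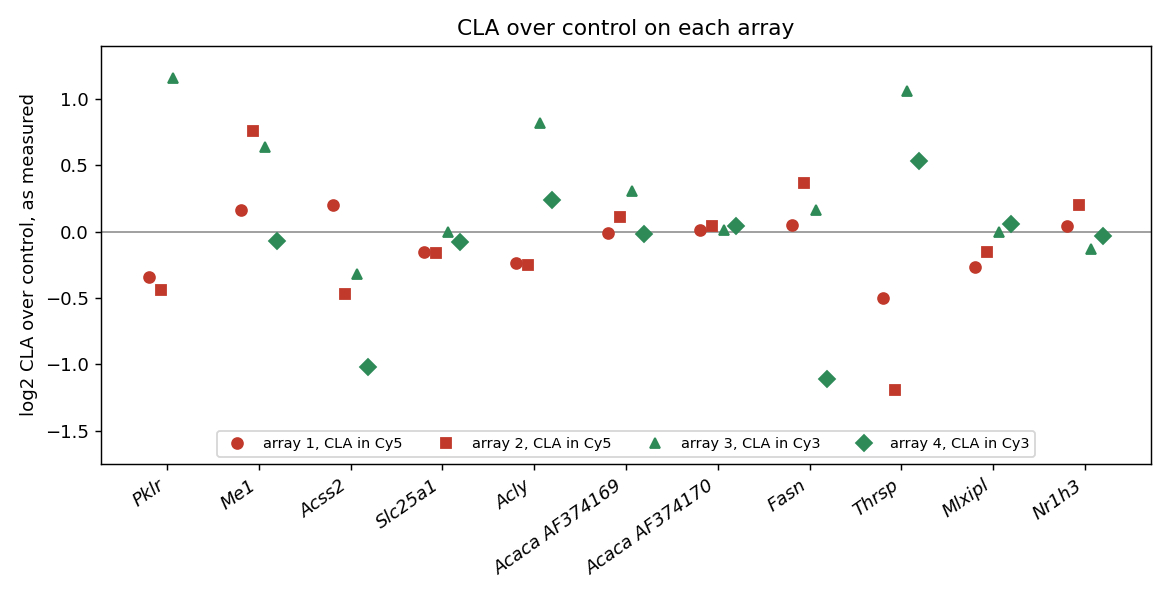
Log2 CLA over control of each probe on each array (y axis), as measured after normalization. Red symbols are arrays with CLA in Cy5, green symbols arrays with CLA in Cy3. Thrsp, Acly and Pklr lie below 0 in red and above 0 in green, while Fasn and Acss2 reach their lowest values, -1.11 and -1.02, on array 4.

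Among the genes that supply carbon and NADPH, Pklr and Me1 had positive diet effects and Acss2 a negative one. Pklr encodes the liver pyruvate kinase, the last step of glycolysis. Its log2 CLA over control was -0.34 and -0.44 on arrays 1 and 2 and 1.16 on array 3. The array 4 spot carried an outlier flag, for uneven pixels in the control channel, and was left out. The CLA channel was thus below control with CLA in Cy5 and above it with CLA in Cy3, and the 2 orientations did not overlap. This gave a diet effect of 0.38 ± 0.08 (SE, n = 3 arrays), 1.3-fold, with a 95% interval of 0.20 to 0.56 and a limma adjusted p of 0.126, beside a dye effect of -0.77. The unadjusted p was 0.0016, the smallest of the 11. It rested on the missing spot: with outlier spots kept, array 4 read -0.01 and the diet effect was 0.09 (limma adjusted p = 0.793).

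Me1 encodes cytosolic malic enzyme, which turns malate into pyruvate and yields NADPH. Its log2 CLA over control was 0.16, 0.76, 0.64 and -0.07 on arrays 1 to 4. CLA was higher on 3 of 4 arrays, and the spread within each orientation was wider than the distance between orientations. Me1 had a diet effect of 0.37 ± 0.13 (SE, n = 4), 1.29-fold, with a limma adjusted p of 0.240. It was 0.22 without array 2, 0.19 without array 3, 0.52 without array 1 and 0.55 without array 4. A further probe, described as malic enzyme of the Mod-1 null allele, read 0.55, 0.54, 0.30 and -0.19, also lowest on array 4. Its diet effect was 0.30 ± 0.08 (limma adjusted p = 0.178).

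Acss2 encodes cytosolic acetyl-CoA synthetase, which makes acetyl-CoA from acetate. Its log2 CLA over control was 0.20, -0.47, -0.32 and -1.02 on arrays 1 to 4. CLA was higher on array 1 and lower on the other arrays, lowest on array 4. Its diet effect was -0.40 ± 0.13 (SE, n = 4), 0.757-fold, with a 95% interval of -0.71 to -0.09 and a limma adjusted p of 0.229. Without array 2 or array 4 it was -0.23. With median centring in place of loess, it was -0.61 and passed the threshold (limma adjusted p = 0.013), as did 0.737% of all probes under that setting.

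Slc25a1 and Acly handle citrate. Slc25a1, the mitochondrial citrate carrier, read -0.15, -0.16, 0.00 and -0.08, at or just below 0 on every array. Its diet effect was -0.10 ± 0.06 (SE, n = 4, limma adjusted p = 0.429), and the 95% interval ran from -0.23 to 0.04. Acly, the ATP citrate lyase, read -0.24 and -0.25 on arrays 1 and 2 but 0.82 and 0.24 on arrays 3 and 4. Its orientations did not overlap, and its dye effect, -0.39, was larger in size than its diet effect of 0.14 ± 0.09 (limma adjusted p = 0.464). Without array 3 the Acly effect was -0.01.

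The 2 probes assigned to Acaca, the acetyl-CoA carboxylase that commits acetyl-CoA to fatty acid synthesis, were dim. They carried no gene symbol and were assigned only by the enzyme named in their description, so their gene is not certain. The probe AF374169 had normalized intensities of 85.2 to 107 in CLA and 86.1 to 109 in control channels, and AF374170 of 82.9 to 135 and 82.1 to 132. The log2 ratios of AF374169 were -0.01, 0.11, 0.31 and -0.02, and those of AF374170 were 0.01, 0.04, 0.01 and 0.04. Both lay close to 0 except AF374169 on array 3. Diet effects were 0.09 ± 0.07 for AF374169 (limma adjusted p = 0.520) and 0.03 ± 0.06 for AF374170 (limma adjusted p = 0.838). With the offset added in background correction, ratios of such dim probes are drawn towards 0.

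Fasn encodes fatty acid synthase, the enzyme that makes palmitate. Its normalized intensity in the control channel was 4533, 4715, 4191 and 4352 on arrays 1 to 4, and in the CLA channel 4697, 6101, 4670 and 2011. The log2 ratio was 0.05, 0.37, 0.16 and -1.11. CLA was thus slightly above control on arrays 1 to 3 and far below it on array 4. Normalization was within each array, so the intensities of 1 channel were not put on a common scale across arrays. Intensity over background before normalization was lowest on array 4 in both channels, 2192 in CLA and 3947 in control. The other arrays held 3584 to 4910 in CLA and 5398 to 5865 in control. For Fasn the diet effect was -0.13 ± 0.17 (SE, n = 4), with a 95% interval of -0.54 to 0.27 and a limma adjusted p of 0.713. It turned to 0.18 without array 4 and was -0.45 without array 3, neither of them called.

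Array 4 also stood apart in markers of the exocrine pancreas, of which 5 of 8 listed were tested. All 5 were well above background in both channels on every array. Their summed normalized intensity was 3527 in the CLA channel of array 4, against 1344 to 1707 in the other CLA channels and 1170 to 1724 in the control channels. The digestive enzymes Cela2a and Prss2 read 2.41 and 2.60 there. The adipocyte list, with 4 of 6 tested, summed to 629 to 1172 in CLA and 640 to 962 in control channels, and the blood list, with 3 of 5 tested, to 20601 to 52160 and 26430 to 58680, lowest in CLA and highest in control on array 4. The Kupffer cell and macrophage list, with 4 of 5 tested, summed to 1395 to 2103 in CLA and 1056 to 2312 in control channels, and its median log2 ratio was 0.50 on array 4 against -0.32 to -0.18 on the others. Their part in the Fasn and Acss2 values of array 4 was not tested.

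**Figure D2:**
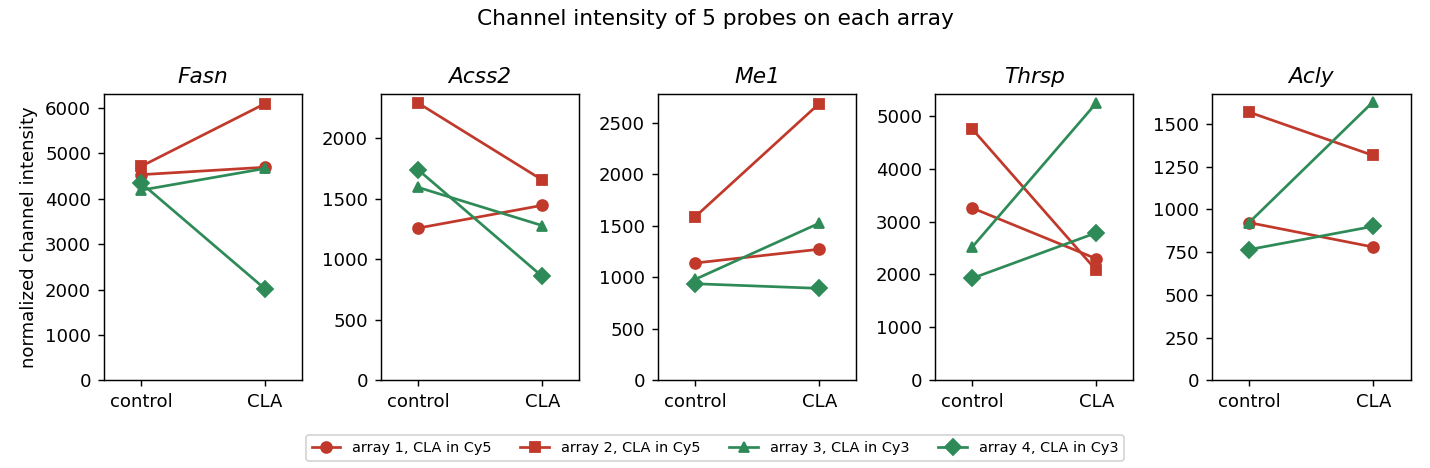
Normalized channel intensity (y axis, arbitrary units from 0, with a scale for each panel) of 5 probes in the control and CLA channels. A line joins the channels of 1 array, red for CLA in Cy5 and green for CLA in Cy3. The control values of Fasn lie between 4191 and 4715, and its CLA value is 2011 on array 4. The lines of Thrsp slope down in red and up in green.

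Of the genes that control lipogenesis, Thrsp had the widest range. Thrsp encodes Spot 14, a small protein of lipogenic tissues that thyroid hormone and carbohydrate induce. Its normalized intensity was 2297, 2080, 5240 and 2787 in the CLA channels of arrays 1 to 4, and 3258, 4754, 2513 and 1925 in the control channels. The log2 ratio was -0.50, -1.19, 1.06 and 0.53. It was below 0 on both arrays with CLA in Cy5 and above 0 on both with CLA in Cy3, a mean of -0.85 against 0.80. Averaged over orientations, the diet effect was -0.03 ± 0.12 (SE, n = 4), with a 95% interval of -0.31 to 0.26 (limma adjusted p = 0.935), and the dye effect was -0.82. Its sign turned without array 2, to 0.15, and without array 4, to 0.11.

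The transcription factors ChREBP and LXRα had narrow ranges. Mlxipl read -0.27, -0.15, 0.00 and 0.06, lower with CLA in Cy5 than in Cy3. The diet effect was -0.09 ± 0.06 (SE, n = 4, limma adjusted p = 0.458), with a 95% interval of -0.23 to 0.05. Nr1h3 read 0.04, 0.20, -0.13 and -0.03, above 0 on arrays 1 and 2 and below 0 on arrays 3 and 4. Its diet effect was 0.02 ± 0.06 (limma adjusted p = 0.898), with a 95% interval of -0.12 to 0.16, that is between 0.917-fold and 1.12-fold.

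The factors that work beside ChREBP and LXRα were read from probes found by their description. The probe described as sterol regulatory element-binding protein 1 read -0.06, -0.04, -0.43 and -0.69, below 0 on every array and lowest on arrays 3 and 4. Its diet effect was -0.31 ± 0.07 (SE, n = 4, limma adjusted p = 0.128). The probe of the related protein 2, known mainly for cholesterol synthesis, read -0.11, -0.46, 0.33 and 0.35, and its diet effect was 0.03 ± 0.07 (limma adjusted p = 0.858). A probe described as a homolog of insulin-induced protein 1, which holds SREBP in the endoplasmic reticulum, read -0.35, -0.38, -0.71 and -0.50. It was below 0 on every array, with a diet effect of -0.48 ± 0.06 (limma adjusted p = 0.053), and it was called without array 4 at -0.54 (limma adjusted p = 0.034). With median centring it was called at -0.71 (limma adjusted p = 0.0026), and so was the probe of protein 1 at -0.52 (limma adjusted p = 0.014). The homolog's probe was also called where only probes above background in both channels on all arrays were tested, at -0.48 (limma adjusted p = 0.043). It was not called without array 1, 2 or 3, where the effect was -0.49, -0.50 and -0.43. Nor was it called with the dye effect equalised, at -0.45 (limma adjusted p = 0.118).

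Several of these genes differed between arrays of the same orientation more than most probes did. Over 19962 probes measured on all arrays, the difference between arrays 2 and 1 had a median size of 0.14 and the difference between arrays 4 and 3 one of 0.12. Of the 10 probes measured on all arrays, 3 were among the 10% of probes with the largest difference in the first case (Me1, Acss2 and Thrsp). In the second case 5 were (those 3, Fasn and Acly). As a set, 5 of the 10 lay above the median size of all probes in the first case and 6 in the second. The median size over the 10 was 0.14 in the first case, the same as over all probes, and 0.43 in the second. The Fasn difference between arrays 4 and 3 was -1.27, and 0.215% of probes had a larger one in size. That difference was -0.70 for Acss2, -0.71 for Me1, -0.59 for Acly and -0.53 for Thrsp, all lower on array 4. The shares of all probes with a larger one were 1.31%, 1.2%, 2.25% and 3.05%. Bright probes differed more here. Within the same 10% band of mean intensity, the shares were 3.76%, 3.41%, 6.46% and 8.46%, and 0.25% for Fasn. Between arrays 2 and 1 the difference was 0.60 for Me1 but -0.67 for Acss2 and -0.69 for Thrsp. By contrast Slc25a1, Mlxipl, Nr1h3 and Acaca AF374170 differed by 0.16 or less in size in both cases. These are descriptions of 2 pairs of arrays and carry no test. The scanner software's own error for a log ratio of these probes was 0.31 to 0.55 on the log2 scale.

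**Figure D3:**
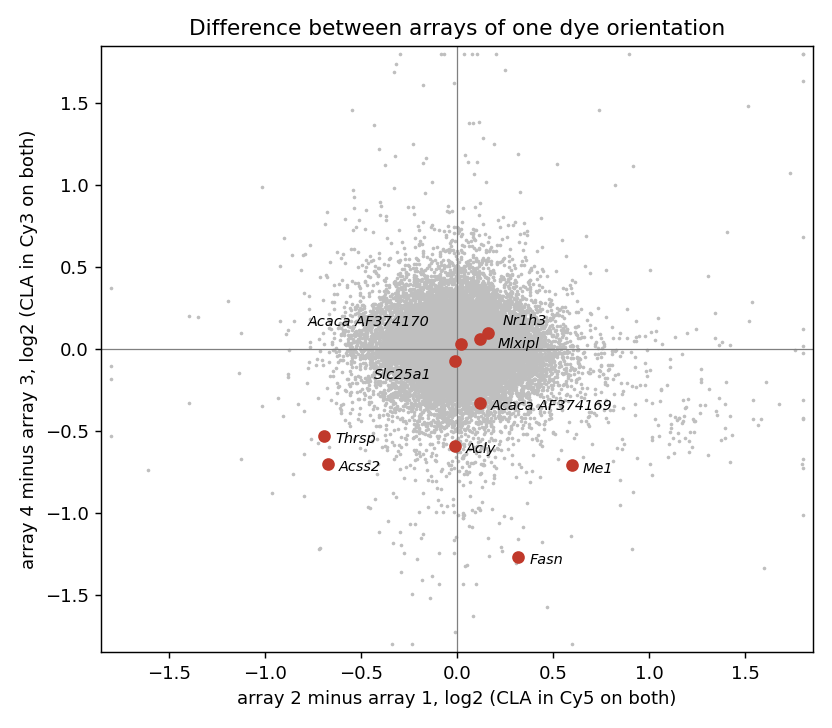
Difference in log2 CLA over control between array 2 and array 1 (x axis) and between array 4 and array 3 (y axis). Grey points are all probes measured on 4 arrays, with those beyond the axes drawn at the edge, and red points are the 10 probes of lipogenic genes so measured. Fasn, Me1, Acss2, Acly and Thrsp lie at -0.53 or lower on the y axis. A larger difference in size there is held by 0.215% (Fasn) to 3.05% (Thrsp) of the grey points. Among probes of like intensity the shares are 0.25% (Fasn) to 8.46% (Thrsp).

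The diet effects of these genes depended on how the arrays were normalized. Of the 11 probes, 9 belonged to the brightest 25% of all probes. With median centring in place of loess, those brightest probes had a median diet effect of -0.16, against -0.01 over all probes. The 11 probes then had a median of -0.25, and 4 lay above 0, beside 48.2% of all. The 2 dim Acaca probes moved up, to 0.20 and 0.08, and the other 9 moved down. Pklr stood at 0.11 and Me1 at 0.16, while Fasn stood at -0.37, Nr1h3 at -0.25 and Acly at -0.07, none of them called. With the dye effect made equal in size on all arrays, the median was 0.03, Me1 stood at 0.39, Acss2 at -0.34, Pklr at 0.22 and Thrsp at -0.23, and no probe of the array was called.

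**Figure D4:**
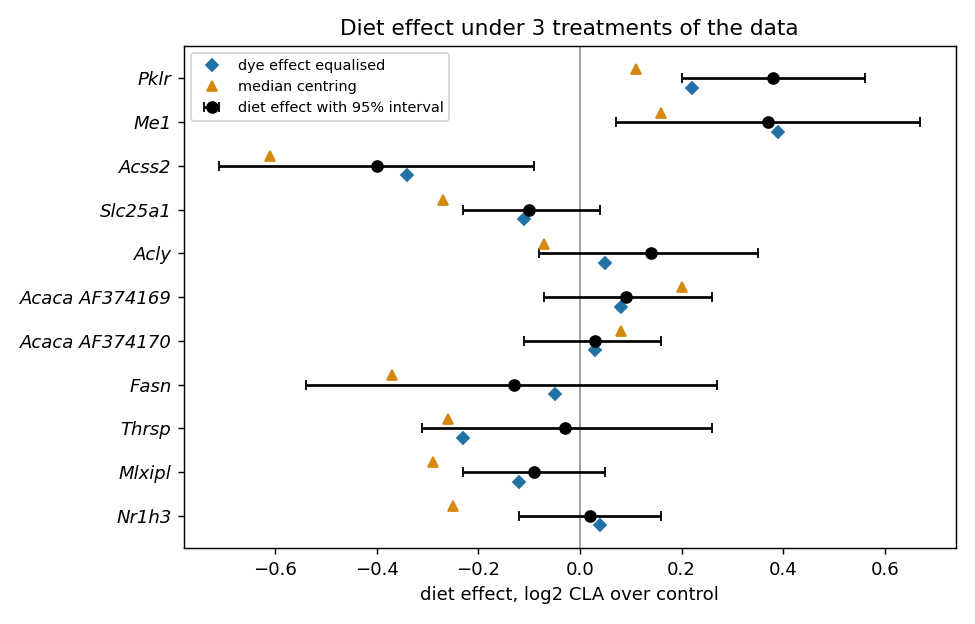
Diet effect of each probe (x axis, log2 CLA over control). Black points with bars are the limma estimate with its 95% interval, blue diamonds the estimate with the dye effect equalised, and orange triangles that with median centring. The intervals of Pklr, Me1 and Acss2 leave out 0 but none of the 3 passed after adjustment, and median centring places 7 of the 11 probes below 0.

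The genes around these in the pathway were read from 7 lists of 95 genes, of which 60 were tested and none was called in either direction (limma). At an unadjusted p under 0.05, 13 were higher and 2 lower, beside 8.76% and 7.18% of all probes. Glucose and fructose metabolism down to pyruvate had 10 of 15 genes tested, 8 above 0 (52.3% of all probes were), with a median of 0.12, or 0.01 with median centring, and 4 higher at that unadjusted p. They were Khk, the fructokinase (0.39 ± 0.09, limma adjusted p = 0.142), Ldha, a lactate dehydrogenase subunit (0.28 ± 0.08, limma adjusted p = 0.199), and the glycolytic enzymes Gapdh (0.24 ± 0.06, limma adjusted p = 0.169) and Gpi1 (0.22 ± 0.07, limma adjusted p = 0.205). Khk and Ldha were below 0 on arrays 1 and 2 and above 0 on arrays 3 and 4. Their dye effects were -1.07 and -1.11, and with the dye effect equalised they stood at 0.13 and 0.01. Gapdh and Gpi1 were above 0 on all 4 arrays, though with median centring they stood at -0.03 and 0.01.

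Mitochondrial pyruvate and citrate metabolism had 11 of 18 genes tested, 8 above 0, with a median of 0.15. With median centring the median was -0.05 and 3 were above 0. The 4 with the smallest p were Pcx, pyruvate carboxylase (0.28 ± 0.06, limma adjusted p = 0.142), Pdha1 and Pdhb, subunits of pyruvate dehydrogenase (0.24 ± 0.06 and 0.22 ± 0.06, limma adjusted p = 0.157 and 0.169), and Slc25a10, the dicarboxylate carrier (0.17 ± 0.06, limma adjusted p = 0.246). With median centring these stood at 0.03, 0.10, 0.01 and 0.00. Pdhb and Slc25a10 were above 0 on every array as measured, whereas Slc25a1 was above 0 on none. NADPH supply beside malic enzyme had 7 of 11 genes tested, 3 above 0, with a median of -0.06. With median centring that median was -0.12 and 1 was above 0. The transketolase Tkt was the highest (0.26 ± 0.06, limma adjusted p = 0.142) and Rpia, of the same pentose phosphate pathway, the lowest (-0.19 ± 0.07, limma adjusted p = 0.252). Tkt read -0.46, -0.32, 0.87 and 0.93 on arrays 1 to 4, with a dye effect of -0.65. It stood at 0.10 with the dye effect equalised and at 0.07 with median centring. Rpe stood at -0.14 ± 0.06 and the isocitrate dehydrogenase Idh1 at -0.12 ± 0.07.

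The list of transcriptional control had 16 of 23 genes tested, with 11 above 0 and a median of 0.02. Mid1ip1, a partner and relative of Spot 14 that promotes polymerization of acetyl-CoA carboxylase, read -0.07, -0.17, -0.28 and -0.83. It was below 0 on every array. Its lowest value was on array 4, as were those of Acss2 and Fasn, which were not below 0 on every array. Its diet effect was -0.33 ± 0.09 (SE, n = 4, limma adjusted p = 0.171), and it was called with median centring at -0.51. Usf1, a factor that binds E-boxes, stood at 0.37 ± 0.09 (limma adjusted p = 0.156) with a dye effect of -0.74, Rxrb at 0.12 ± 0.07 and the insulin-signalling kinase Akt2 at 0.08 ± 0.06. AMP-activated kinase, which inactivates acetyl-CoA carboxylase, and its upstream partners had 4 of 9 genes tested, from -0.08 ± 0.06 for Strada to 0.17 ± 0.10 for Cab39 (n = 3), with Stk11 at -0.04 ± 0.06 and Prkag1 at 0.00 ± 0.06.

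Downstream, the genes that use new fatty acid, by lengthening, desaturation or triglyceride assembly, had 6 of 11 genes tested. Of these 5 lay above 0, with a median of 0.11. With median centring the median was -0.11 and 2 were above 0. Fads2, the delta-6 desaturase, had the smallest p of all 7 lists (0.34 ± 0.06, limma adjusted p = 0.089), and Scd1, the stearoyl-CoA desaturase, stood at 0.43 ± 0.12 (limma adjusted p = 0.182). Scd1 read -0.56, 0.25, 1.16 and 0.88 on arrays 1 to 4, and its diet effect was 0.23 without array 2, 0.23 with median centring and 0.29 with the dye effect equalised. Fads2 was below 0 on both arrays with CLA in Cy5, and stood at 0.16 with the dye effect equalised and at 0.15 with median centring. Elovl6, which lengthens palmitate, read 0.06, 0.91, 0.32 and -0.63, the same order of arrays as Fasn, with a diet effect of 0.16 ± 0.17 (limma adjusted p = 0.636), and Elovl5 stood at 0.06 ± 0.10. Targets of LXRα had 6 of 8 genes tested, 4 above 0, with a median of 0.02. Abca1 stood at 0.02 ± 0.07, Abcg8 at 0.14 ± 0.07, Pltp at 0.09 ± 0.06 and Lpl at -0.09 ± 0.08, none with an unadjusted p under 0.05.

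**Figure D5:**
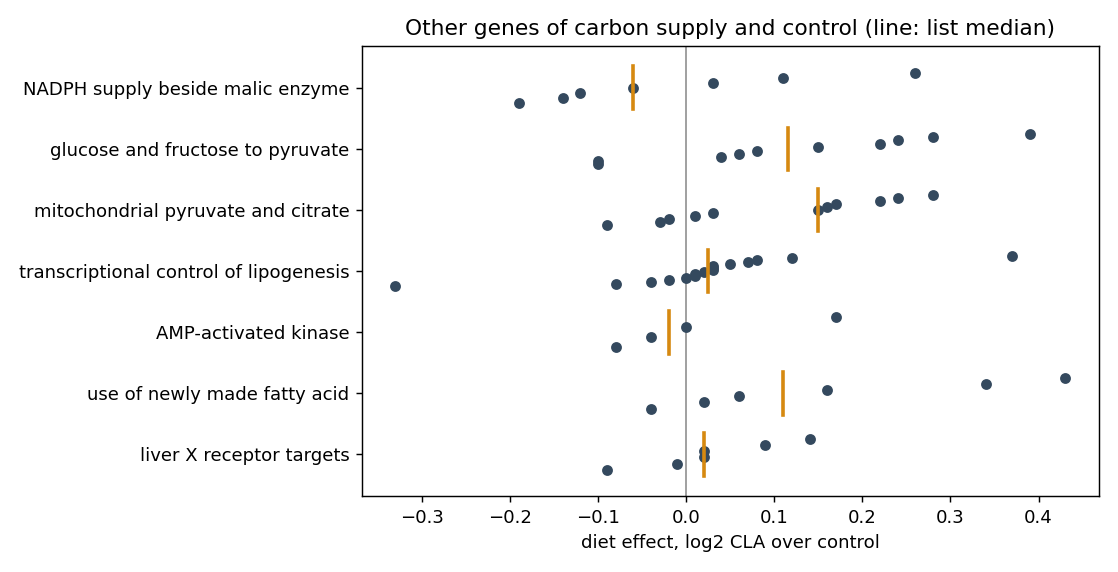
Diet effect (x axis, log2 CLA over control) of the 60 tested genes in 7 lists around the lipogenic genes. Points are genes and the orange line is the list's median, which runs from -0.06 for NADPH supply to 0.15 for mitochondrial pyruvate and citrate. The highest point is Scd1 at 0.43 and the lowest Mid1ip1 at -0.33.

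None of the 11 probes was among the 775 in the authors' deposited table, which lists genes they found significant. Of the other genes described here, that table held 4 of the 60 tested list genes, Pgls, Pdk4, Rxrb and Scd1. The authors' ratios for these were 1.45, 0.734, 1.51 and 1.82, against 1.02-, 0.986-, 1.09- and 1.35-fold here. It also held the probes of Srebp2 (ratio 1.41, against 1.02-fold here) and of the insulin-induced protein 1 homolog (0.745, against 0.715-fold). The reason for the differences was not tested.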

How the data were processed

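Total liver RNA was labelled directly and hybridised to 4 two-colour arrays, per the labels' protocols. The deposited scanner files hold the mean foreground and median background intensity per spot, made with Agilent Feature Extraction, per the file headers. They also hold, as deposited, log10 ratios of processed intensities and an error score for each. The deposited series matrix holds log10 ratios that run as CLA over control (slope 1.00 on the scanner's ratio for arrays 1 and 2, -1.00 for arrays 3 and 4). The authors' deposited table gives a ratio, a signed fold score and a p-value per probe, by a test that none of these sources names.

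Intensities were corrected by normexp (offset 50), with loess within each array, in limma 3.58.1 (R 4.3.3). Control spots (1075 of 22393) had weight 0 and outlier spots were set missing. Probes well above background for at least 1 diet on 2 arrays and measured on 3 were tested. The model had a dye intercept per probe and diet as +1 or -1. The number of arrays limits the precision. Of 20868 probes, 11412 stayed unnamed. On simulated data of 19962 probes, 100% of changes of log2 size 1 or 2 were recovered, with 9 false calls. That simulation used independent noise and the same dye effect on every array. Smaller changes, such as those of the lipogenic probes, and a dye effect that differs between arrays were not simulated. Recovery of such changes is therefore not known.

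The members and lists were chosen with earlier results of these data known. Named genes were all members and the 4 with the smallest p in each list. Motifs were searched in 300-base RefSeq windows. Alternatives are listed in the closing section.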

Additional observations from a re-analysis of the deposited data

Results flagged for a closer look

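Among 72 sets of 4 array values examined, 5 held a value whose gap to the nearest other, as a share of the whole range, passed Dixon's 95% critical value for 4 samples. Chance gives about 1 in 20 sets where all 4 values share 1 normal distribution, which need not hold for arrays of 2 dye orientations. Markers of the exocrine pancreas gave 3 of them, all on array 4: Cela2a at 2.41 (others -0.23 to 0.01), Prss2 at 2.60 (others -0.10 to 0.11) and Ctrb1 at 1.36 (others 0.11 to 0.17), as log2 CLA over control. Fasn and Acss2 had their lowest values on the same array. On array 3 the mitochondrial carrier Slc25a10 read 0.29 (others 0.11 to 0.14), and Strada, a partner of the kinase Stk11, read -0.19 (others -0.06 to -0.03). None of the 10 lipogenic probes measured on all 4 arrays had such a value. The rule looks for 1 value apart from the others, so it cannot flag a split between dye orientations such as that of Thrsp.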

How the results depend on the processing

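Of 185 values of the 11 lipogenic probes under the alternatives, 176 kept their direction, 9 reversed and 1 passed the threshold, Acss2 with median centring. The number of probes called over the array was 14. It was 0 with no background subtraction, with the smaller offset of 10, with the scanner's processed signals, with equal spread on all arrays, with no dye term, with the dye effect equalised and with the series matrix, 149 with median centring, and 38 with probes above background in both channels on all arrays. Leaving out 1 array gave 2 to 72. Median centring called 1 of the 11 probes and 1 of the 60 list genes, Mid1ip1, and also the Srebp1 probe (-0.52) and the insulin-induced protein 1 homolog probe (-0.71). Median centring also reversed Acly to -0.07, Nr1h3 to -0.25, the Srebp2 probe to -0.01, Gapdh to -0.03, Elovl5 to -0.19 and Elovl6 to -0.04, and left Slc25a10 and Strada at 0.00. The smaller offset left Nr1h3 at 0.00. Equal spread gave -0.01 for the Srebp2 probe and -0.02 for Abca1, and the equalised dye effect -0.05 and -0.04. Without 1 array, the diet effect ranged from -0.01 to 0.29 for Acly, -0.45 to 0.18 for Fasn, -0.20 to 0.15 for Thrsp, -0.02 to 0.06 for Nr1h3, -0.06 to 0.12 for the Srebp2 probe, -0.05 to 0.04 for Prkag1, -0.11 to 0.23 for Elovl5, -0.07 to 0.40 for Elovl6, -0.06 to 0.10 for Abca1 and -0.19 to 0.01 for Lpl. The cause was not tested. Every array has a slide of its own, so no slide block was run. Each array pairs a CLA pool with a control pool, and the fit used the log ratio within the array. No further pairing between arrays was possible because the labels name no shared pool. With 4 arrays, intervals are wide: that of Fasn runs from -0.54 to 0.27. Signal over background limits only the dim Acaca probes.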
